A study of Mus musculus with 3 samples.

Results

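The S100 calcium-binding proteins form a family of small proteins, each built from a pair of calcium-binding EF-hand motifs. They were described here through 8 genes, S100a1, S100a4, S100a6, S100a8, S100a9, S100a10, S100a11 and S100a13, on 3 Affymetrix mouse expression arrays. A gene was measured where a probe set of the deposited value table carried its symbol alone in the platform annotation. This gave 10 probe sets for 7 of the 8 genes, out of 45037 probe sets and 18193 genes in all. S100a11 had no value, because its probe set also names S100a11-ps and Gm12854.

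The 3 arrays held 1 sorted population of the adult mouse spleen each: red pulp macrophages, monocytes expressing Spic and monocytes not expressing it. Every mouse was Spic(igfp/+), that is, 1 Spic allele carried a green fluorescent protein (GFP) reporter, so the Spic-negative monocytes carried the reporter allele too. Spic encodes a transcription factor that red pulp macrophages need. Macrophages were sorted as high for the macrophage antigen encoded by Adgre1 and for GFP, and monocytes as positive for CD11b and Ly6C, divided by GFP, after depletion of cells bearing CD4, CD8 or B220. The number of mice behind each array is not given in the labels. With 1 array a population there is no spread between animals and no test, so every difference below is a log2 difference between 2 arrays, described by its size.

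S100 proteins bind calcium when its concentration in the cell rises, change shape and then dock onto target proteins. S100A4, S100A6, S100A10 and S100A11 act mostly inside the cell on myosin, annexins and the membrane skeleton. S100A8 and S100A9 pair into calprotectin, an abundant protein of neutrophils and classical monocytes that binds zinc and manganese and, once released, signals through Toll-like receptor 4. Red pulp macrophages are resident spleen cells that engulf old red blood cells and return the iron to the blood.

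Sort genes followed the labels. Spic measured log2 12.23 in red pulp macrophages, 9.22 in Spic-positive monocytes and 5.66 in Spic-negative monocytes. Adgre1 measured 12.50, 10.67 and 10.77 in the same order, and CD11b (Itgam) 5.23, 7.38 and 8.68. The arrays also differed in ways that the sort does not name. Xist, the noncoding RNA that coats an inactive X, measured 11.95 in red pulp macrophages, 4.70 in Spic-positive monocytes and 4.63 in Spic-negative monocytes. The Y-linked gene Eif2s3y measured 3.31, 9.56 and 10.10 in the same order. These genes differed as they do between the sexes, and the sex of the mice cannot be told apart from the difference between macrophages and monocytes. The 18 hybridization controls were brighter on the Spic-positive monocyte array, with a median difference of 2.16 from the Spic-negative array, while red pulp macrophages differed from Spic-negative monocytes by 0.07. Erythroid markers were above the floor, the median of all probe sets at log2 5.02, in 5 of 8 measured members in red pulp macrophages, 3 in Spic-positive monocytes and 1 in Spic-negative monocytes. Their summed level was log2 13.25, 7.80 and 7.49 in the same order, so the macrophage array was far higher. B cell markers had a summed level of log2 14.59 in red pulp macrophages, 13.30 in Spic-positive monocytes and 11.70 in Spic-negative monocytes. Most of the macrophage sum was Ighm, which measured 14.49, 12.97 and 11.47 in the same order on the probe set used. Its other probe sets disagreed on the order of the monocyte arrays. For example, 1 measured 14.50, 12.13 and 10.54 and another 13.82, 4.24 and 6.82 in the same order. Cd79b was also highest in macrophages, while Ms4a1, Cr2, Cd22, Cd79a and Pax5 were highest in Spic-positive monocytes. Dendritic cell markers summed to 9.93, 11.40 and 9.39, T cell markers to 8.69, 8.18 and 7.91, and NK cell markers to 10.14, 7.07 and 7.07. The part of any of these in the S100 values was not tested. In sorted cells measured in bulk, fewer cells of a type and less RNA per cell cannot be told apart.

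S100a4, S100a6 and S100a10 were far lower in red pulp macrophages than in either monocyte population, while S100a8 and S100a9 stayed at high levels on all 3 arrays. Against Spic-negative monocytes, 3 of the 7 measured genes were at least 2-fold lower in red pulp macrophages, where 11.3% of the 12375 genes above the floor were. The same 3 were at least 4-fold lower, against 2.63% of all genes, and S100a4 and S100a6 at least 8-fold lower, against 0.695%. None of the 7 was 2-fold higher, against 19.6%. The median difference was -0.95 over the 7 genes and 0.03 over all genes. All 7 genes lay above the floor on every array on the probe set used for the gene, the one with the highest mean.

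**Figure D1:**
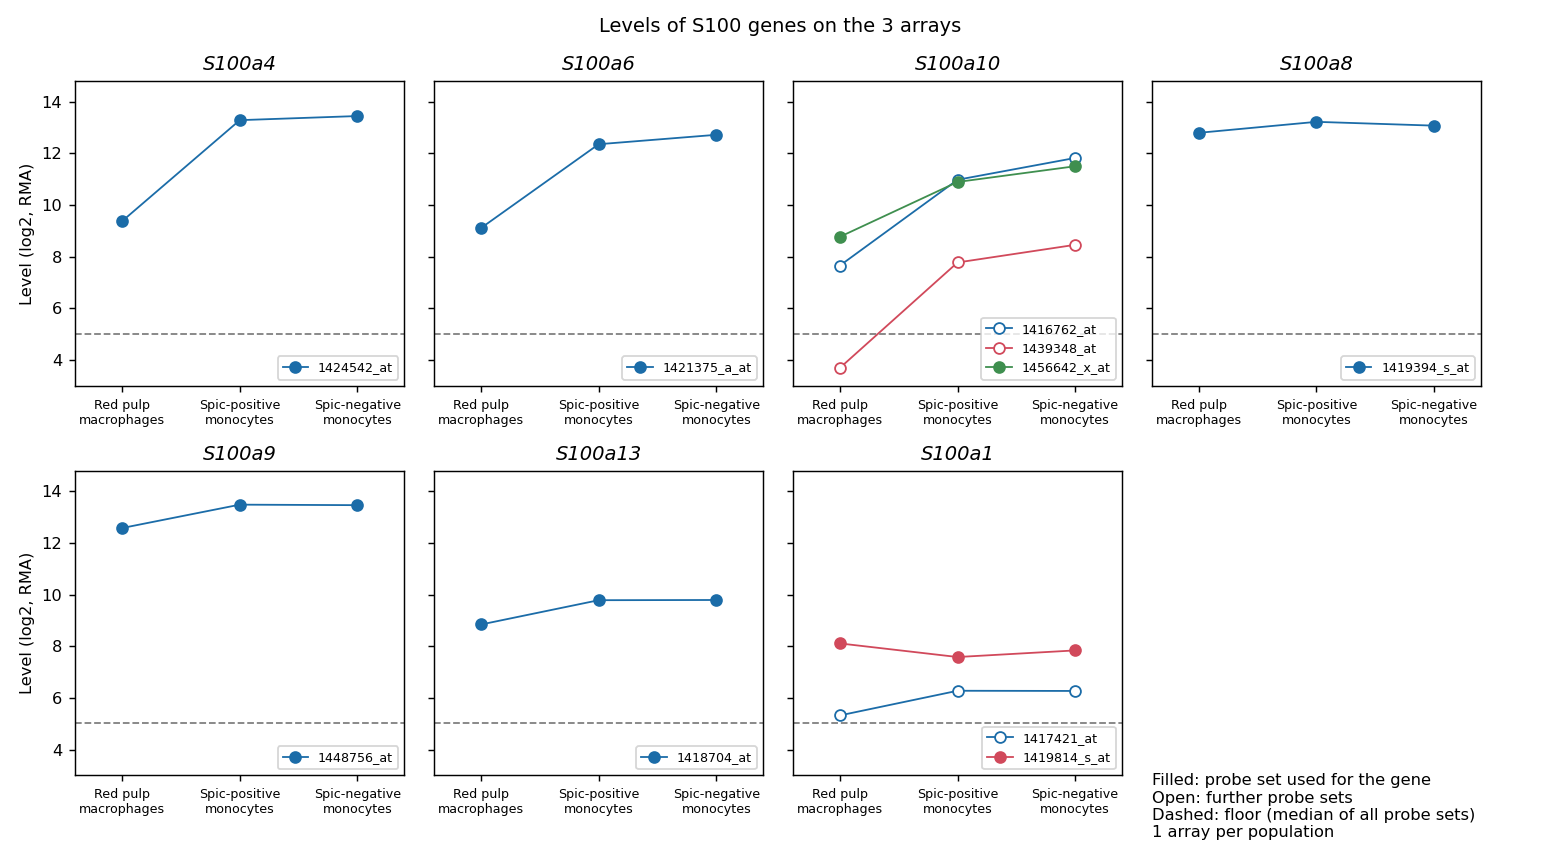
Level of each probe set (log2, RMA) of the 7 measured S100 genes on the arrays of red pulp macrophages, Spic-positive monocytes and Spic-negative monocytes, 1 array each, with the floor dashed at 5.02. S100a4 sits at 9.38 in red pulp macrophages, against 13.29 and 13.45 in the monocytes, while S100a8 stays between 12.80 and 13.22.

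S100a4 encodes a protein that binds nonmuscle myosin and is known for its role in cell movement. It measured log2 9.38 in red pulp macrophages, 13.29 in Spic-positive monocytes and 13.45 in Spic-negative monocytes. The macrophage array was thus low and both monocyte arrays were high, a 16.8-fold difference from Spic-negative monocytes (log2 -4.07) and a 15.0-fold difference from Spic-positive monocytes (-3.91). Ordered from the lowest, the difference from Spic-negative monocytes was number 22 of 12375 genes.

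S100a6, or calcyclin, which binds the ubiquitin ligase adaptor Cacybp, had the same shape. Its level was 9.11 in red pulp macrophages, 12.35 in Spic-positive monocytes and 12.72 in Spic-negative monocytes. Macrophages were 12.2-fold lower than Spic-negative monocytes (-3.61, number 40 of 12375 from the lowest) and 9.47-fold lower than Spic-positive monocytes (-3.24). S100a4 and S100a6 were each measured by a single probe set.

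S100a10 (p11) differs from its relatives in that its protein has lost calcium binding. It pairs with annexin A2 at the cell membrane, where the complex binds plasminogen. Its 3 probe sets all placed red pulp macrophages lowest and Spic-negative monocytes highest, but by unequal amounts. The probe set used for the gene, which can bind several transcripts, measured 8.77 in red pulp macrophages, 10.89 in Spic-positive monocytes and 11.50 in Spic-negative monocytes. On it macrophages differed from Spic-negative monocytes by -2.73, a 6.64-fold lower level. The second measured 7.66, 10.98 and 11.82 in the same order, a 17.9-fold lower level in macrophages than in Spic-negative monocytes (-4.16). The third measured 3.70, 7.78 and 8.46 (-4.76), with the macrophage value under the floor. The choice of probe set therefore moved the size of the fold and left its direction as it was.

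S100a8 and S100a9 had high levels on every array. S100a8 measured 12.80 in red pulp macrophages, 13.22 in Spic-positive monocytes and 13.07 in Spic-negative monocytes, so macrophages differed by -0.43 and -0.28. Its 1 probe set is of the kind that can bind several transcripts. S100a9 measured 12.58 in red pulp macrophages, 13.48 in Spic-positive monocytes and 13.46 in Spic-negative monocytes, with differences of -0.90 and -0.88, just short of 2-fold. Both genes were lower on the macrophage array than on either monocyte array, by less than 2-fold. The highest value of the whole table was 14.50, so these probe sets, and that of S100a4 in monocytes, lie near the top of the scale, where differences can be compressed.

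S100a13, whose protein takes part in the release of growth factors that lack a signal peptide, measured 8.84 in red pulp macrophages, 9.78 in Spic-positive monocytes and 9.79 in Spic-negative monocytes. Macrophages differed by -0.94 and -0.95, short of 2-fold, and the monocyte arrays by -0.01. S100a1, best known from heart muscle, where it regulates calcium cycling, had 2 probe sets that pointed different ways. The brighter measured 8.11 in red pulp macrophages, 7.58 in Spic-positive monocytes and 7.84 in Spic-negative monocytes, the other 5.32, 6.28 and 6.27. Macrophages differed from Spic-negative monocytes by 0.27 on the first and by -0.95 on the second, so no direction can be given for S100a1. In the RefSeq annotation (GRCm38.p6) S100a1 and S100a13 lie on opposite strands and overlap by 98 bases, and whether any probe lies there was not tested.

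**Figure D2:**
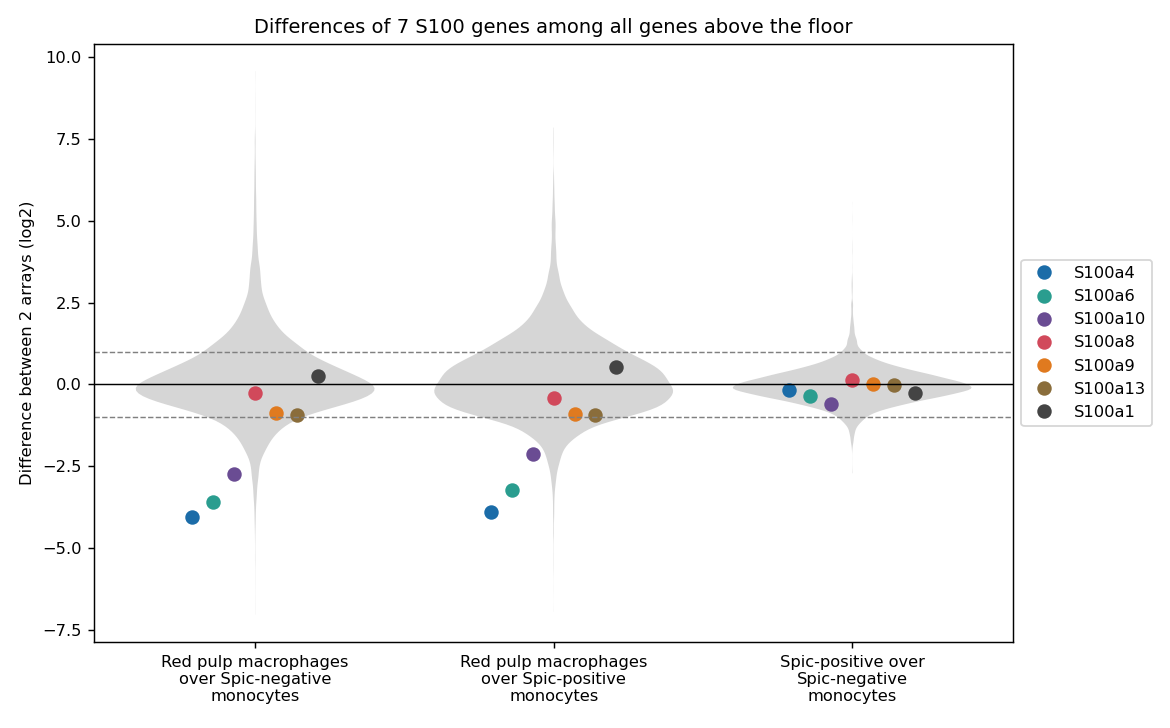
Difference between 2 arrays (log2) for the 7 measured S100 genes (points) over the distribution of all 12375 genes above the floor (grey), for the 3 comparisons. S100a4, S100a6 and S100a10 lie between -4.07 and -2.12 in the 2 macrophage comparisons, and all 7 genes lie within the dashed 2-fold lines between the monocyte arrays.

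Against Spic-positive monocytes, the counts in red pulp macrophages were the same, with 3 of 7 genes at least 2-fold lower beside 11.6% of all genes, all 3 of them at least 4-fold lower (2.04% of all genes) and none 2-fold higher (22% of all genes). S100a4 and S100a6 were at least 8-fold lower, against 0.444% of all genes. The median difference was -0.94 over the 7 genes and 0.10 over all genes. The macrophage comparisons share the macrophage array, so they are not independent of each other.

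Between the monocyte populations none of the 7 S100 genes differed by 2-fold, where 3.06% of all genes passed that line downwards and 3.49% upwards in the Spic-positive array. The differences ran from -0.61 to 0.15, with a median of -0.16, against -0.06 over all genes. S100a10 had the largest of them, a 1.53-fold lower level in Spic-positive monocytes (-0.61), and its other probe sets gave -0.84 and -0.68. S100a6 differed by -0.36 and S100a4 by -0.16. S100a8 and S100a9 differed by 0.15 and 0.02. On the same array 10 of 11 listed macrophage markers, such as Vcam1 and Cd5l, exceeded their Spic-negative level by at least 2-fold. Among the 10 was Spic (3.56), whose GFP reporter divided the monocytes in the sort. The list was also chosen with earlier results of these data known. The 3 S100 genes that were low in macrophages thus lay within 2-fold of Spic-negative monocytes on an array where most macrophage markers did not.

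Most S100 genes lie side by side on mouse chromosome 3. In the RefSeq order the measured genes ran S100a1, S100a13, S100a14, S100a16, S100a3, S100a4, S100a5, S100a6, S100a8, S100a9, S100a7l2 and, beyond 54 other protein-coding genes and S100a11, S100a10. The genes that were at least 2-fold lower in macrophages did not all lie next to each other. S100a4 and S100a6 flank S100a5, which lay under the floor on all 3 arrays (3.21 in red pulp macrophages, 4.09 in Spic-positive monocytes and 3.60 in Spic-negative monocytes). Next after S100a6, leaving out S100a7a, which had no probe set of its own, come S100a8 and S100a9 with their small differences.

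**Figure D3:**
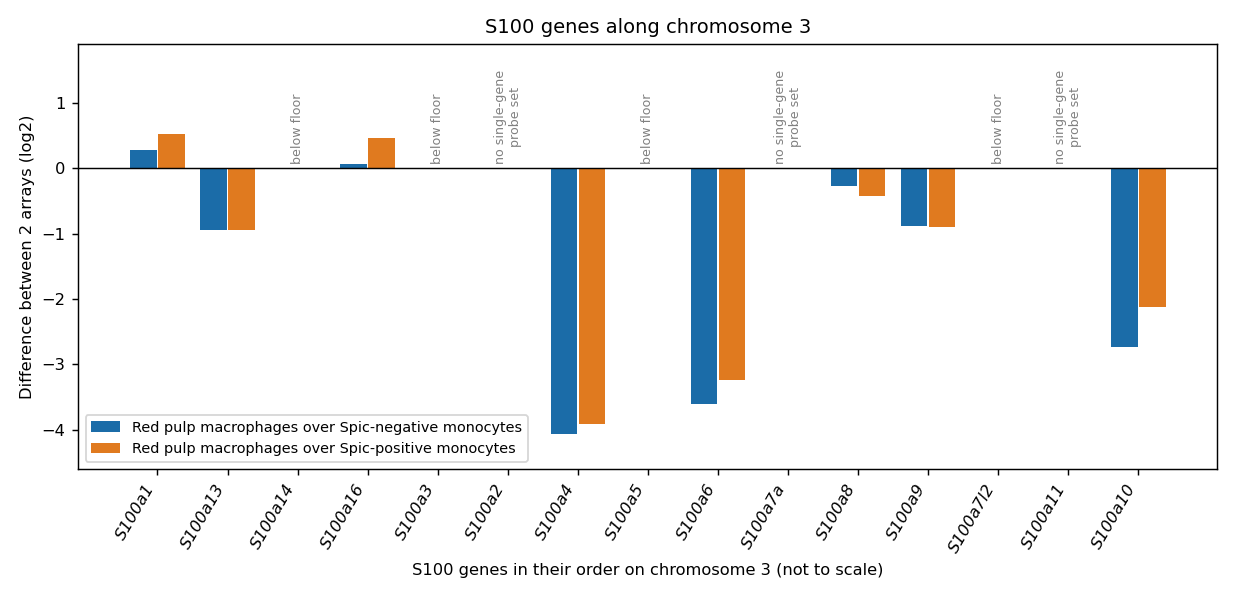
Difference of red pulp macrophages from Spic-negative and from Spic-positive monocytes (log2, 1 array each) for S100 genes in their order on chromosome 3, which is not drawn to scale. Bars are absent for genes under the floor on all arrays or without a probe set of their own. The bars of S100a4, S100a6 and S100a10 are the longest, and the short bars of S100a8 and S100a9 stand between those of S100a6 and S100a10.

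The 250 bases before the start of S100a4 and S100a6, which were much lower in macrophages, and of the nearby S100a8 and S100a9, which were not, are shown so that the neighbours can be set side by side. They come from RefSeq (GRCm38.p6), 5′ to 3′ on the strand of the gene, at chr3:90603520-90603769 (plus strand), chr3:90612644-90612893 (plus), chr3:90668821-90669070 (plus) and chr3:90695722-90695971 (minus). Capitals mark matches to TATAAA, the TATA box, and to GAGGAA, a form of the site for Ets factors such as PU.1 and SPIC. They also mark TTGCNNAA, a form of the C/EBP site, and TGANTCA, the AP-1 site, all searched on both strands. The shorter Ets core GGAA was not searched.
S100a4: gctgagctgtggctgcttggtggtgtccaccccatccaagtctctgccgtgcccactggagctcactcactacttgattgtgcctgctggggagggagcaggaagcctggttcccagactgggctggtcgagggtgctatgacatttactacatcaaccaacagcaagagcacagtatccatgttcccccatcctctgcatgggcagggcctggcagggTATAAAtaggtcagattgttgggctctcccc
S100a6: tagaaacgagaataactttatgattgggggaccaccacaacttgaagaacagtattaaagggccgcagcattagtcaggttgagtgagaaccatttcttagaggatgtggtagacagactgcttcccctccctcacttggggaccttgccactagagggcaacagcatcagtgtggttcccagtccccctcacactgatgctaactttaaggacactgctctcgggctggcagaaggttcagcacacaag
S100a8: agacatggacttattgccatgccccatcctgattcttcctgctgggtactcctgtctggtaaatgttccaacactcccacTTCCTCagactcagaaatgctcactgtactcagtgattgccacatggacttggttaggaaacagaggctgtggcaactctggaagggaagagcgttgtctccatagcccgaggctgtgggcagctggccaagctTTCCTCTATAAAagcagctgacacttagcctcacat
S100a9: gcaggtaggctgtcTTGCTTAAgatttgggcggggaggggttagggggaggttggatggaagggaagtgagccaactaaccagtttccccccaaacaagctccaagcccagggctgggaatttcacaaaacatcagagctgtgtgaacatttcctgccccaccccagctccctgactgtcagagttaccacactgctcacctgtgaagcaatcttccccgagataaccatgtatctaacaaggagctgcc
A TATAAA stood at -31 to -26 of S100a4 and at -30 to -25 of S100a8, counted back from the first base of the gene. Among 32851 RefSeq promoter windows of this length 12.4% hold it, and 6.78% of the 12746 windows of genes above the floor. S100a8 also held GAGGAA on the opposite strand at -36 to -31, next to its TATAAA, and at -170 to -165, a motif found in 23.3% of all windows and 22.7% of those of genes above the floor. S100a9 held TTGCTTAA at -236 to -229, and TTGCNNAA is found in 9.56% and 7.71%. TGANTCA, found in 6.75% and 4.78%, had no match in these 4, and no motif of the 4 matched in S100a6. S100a4, lower in macrophages, and S100a8, with a small difference, thus share the TATAAA, and S100a4 and S100a6, which were lower together, share none of the 4 motifs. These matches describe letters in a window and not binding.

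Other S100 genes gave little signal. Of 7 further genes measured from the list of relatives, 3 lay above the floor on any array. S100a16 measured 7.24 in red pulp macrophages, 6.79 in Spic-positive monocytes and 7.18 in Spic-negative monocytes on its brighter probe set, and its second probe set was above the floor only in red pulp macrophages, at 5.33. S100b, the astrocyte member, stayed near the floor at 5.06, 5.29 and 5.68 in the same order. S100pbp, which encodes a binding protein of the family and not an S100 protein, measured 7.18 in red pulp macrophages, 5.81 in Spic-positive monocytes and 6.95 in Spic-negative monocytes, with a second, dimmer probe set highest in Spic-positive monocytes. S100a3, S100a5, S100a14 and S100g were under the floor throughout, as was S100a7l2, a gene outside that list.

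Genes for the partners of S100A10 differed in size and direction. Of 7 genes of the plasminogen group 4 lay above the floor, and 3 of these were at least 2-fold lower and 1 higher in red pulp macrophages against Spic-negative monocytes (median -1.90), beside 11.3% and 19.6% of all genes. Ahnak, a very large scaffold protein that the annexin A2 and S100A10 complex binds, measured 8.90 in red pulp macrophages, 11.77 in Spic-positive monocytes and 12.87 in Spic-negative monocytes. It was thus low in macrophages, with a difference of -3.97 from Spic-negative monocytes, and the monocyte arrays differed by -1.10, where S100a10 differed by less than 2-fold. Plaur, the urokinase receptor, measured 9.52 in red pulp macrophages, 11.46 in Spic-positive monocytes and 11.67 in Spic-negative monocytes (-2.16 against the last). Anxa2 itself measured 11.14, 12.01 and 12.79 in the same order, a difference of -1.65 from Spic-negative monocytes. Serpinb2, an inhibitor of plasminogen activators, went the other way, with 6.39 in red pulp macrophages and values under the floor in monocytes. Plat, Plau and Plg, which encode the plasminogen activators and plasminogen, were under the floor on all 3 arrays.

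The annexins are membrane-binding proteins that several S100 proteins dock onto. Of 8 above the floor, 2 were at least 2-fold lower in red pulp macrophages than in Spic-negative monocytes, beside the 11.3% of all genes. At least 2-fold higher was 1 of them, beside 19.6% of all genes, and the median was -0.59. Anxa1, the partner of S100A11, measured 11.42 in red pulp macrophages, 12.37 in Spic-positive monocytes and 12.70 in Spic-negative monocytes (-1.28), while its dimmer probe set measured 3.35, 6.28 and 7.64 (-4.28), with the macrophage value under the floor. Anxa9 was the higher one, at 6.88, 5.49 and 4.30. The other 5 genes, Anxa3, Anxa4, Anxa5, Anxa6 and Anxa7, differed by -0.80 to 0.83 on the probe sets used.

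Myosin genes, the targets of S100A4, differed in opposite directions. Myh9, the heavy chain of nonmuscle myosin IIA, measured 10.77 in red pulp macrophages, 12.27 in Spic-positive monocytes and 12.20 in Spic-negative monocytes on the probe set used (-1.43 against the last), while the differences of its other 4 probe sets ran from -1.79 to 0.04. Myh10, the IIB heavy chain, measured 9.13 in red pulp macrophages and lay under the floor in monocytes, at 3.67 and 4.33. It was thus higher by 4.80 than in Spic-negative monocytes, on 1 of its 2 probe sets, the other being under the floor throughout. Cacybp, the partner of S100A6, differed by 0.76 and Ppfibp1 by 0.34. All 3 measured calcium entry genes were at least 2-fold lower against Spic-negative monocytes, beside 11.3% of all genes. Orai1, the pore of the store-operated calcium channel, differed by -1.75 and the calcium sensors Stim2 and Stim1 by -1.17 and -1.03, although a second probe set of Stim1 gave -0.13.

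**Figure D4:**
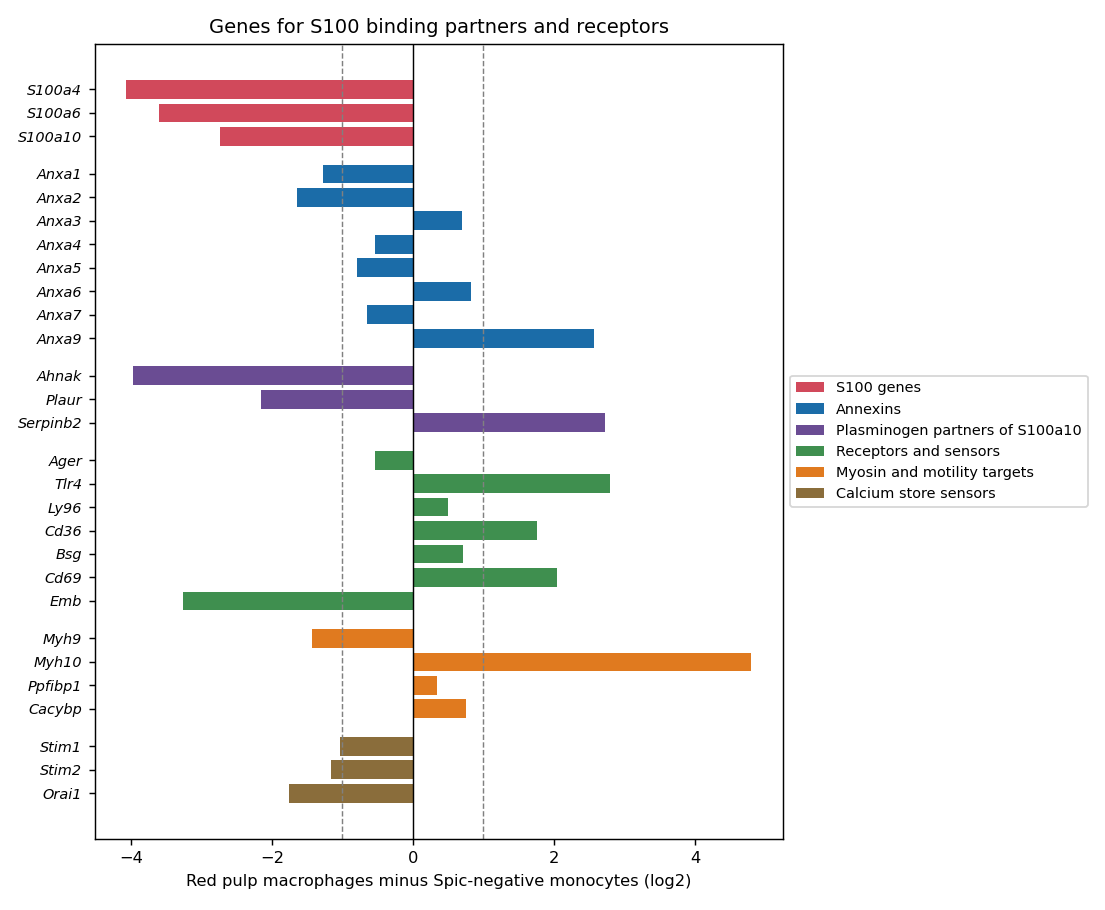
Difference of red pulp macrophages from Spic-negative monocytes (log2, 1 array each) for S100a4, S100a6 and S100a10 and for genes of their binding partners and receptors above the floor, with 2-fold dashed. Ahnak (-3.97) and Emb (-3.26) are the lowest partners, and Myh10 (4.80) the highest.

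Genes for receptors of released S100 proteins went both ways. Of 7 above the floor, 3 were 2-fold or more above Spic-negative monocytes, beside 19.6% of all genes, and 1 was at least 2-fold below them, beside 11.3%. Tlr4 measured 9.13 in red pulp macrophages, 5.84 in Spic-positive monocytes and 6.34 in Spic-negative monocytes, higher by 2.79, and its co-receptor Ly96 measured 9.19, 9.04 and 8.69. Macrophages stood apart for Tlr4 and not for Ly96. Cd36, a scavenger receptor for fatty acids, was higher by 1.76 and Cd69, an activation marker, by 2.04 in red pulp macrophages against Spic-negative monocytes. Basigin (Bsg) differed by 0.71 and the advanced glycation receptor Ager by -0.54. Emb, or embigin, a relative of basigin, differed by -3.26, with 8.66 in red pulp macrophages, 10.98 in Spic-positive monocytes and 11.92 in Spic-negative monocytes.

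Of 7 measured transcription factors known to act on S100a8 and S100a9, 4 were at least 2-fold lower in red pulp macrophages than in Spic-negative monocytes, beside 11.3% of all genes (median -1.03). Cebpa, a factor of granulocyte and monocyte progenitors, measured 6.99 in red pulp macrophages, 9.51 in Spic-positive monocytes and 9.87 in Spic-negative monocytes (-2.88). Cebpb differed by -1.03, Cebpd by -1.18 and Stat3 by -1.84, with a further probe set near 0 for Cebpd (-0.06) and Stat3 (-0.01), and Spi1, which encodes PU.1, by -0.53. Atf3 (0.58) and Klf5 (0.69) were the 2 factors with a positive difference.

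Because S100a8 and S100a9 are abundant in neutrophils, the markers of that cell are given beside them. Of 15 fixed neutrophil markers 10 were measured, and 9 were above the floor in red pulp macrophages and 10 on each monocyte array. The summed level of the 10 was log2 14.42 in red pulp macrophages, 14.05 in Spic-positive monocytes and 13.89 in Spic-negative monocytes. Their median level ran the other way, at 8.67, 9.79 and 10.40 in the same order. Ngp, a neutrophil granule protein gene, measured 12.77, 12.52 and 12.23 in the same order, Camp, which encodes the granule peptide cathelicidin, 12.53, 12.35 and 11.76, and the lactoferrin gene Ltf 12.18, 10.38 and 10.71. These 3 granule genes were thus highest in red pulp macrophages, as were Lcn2 (11.58, 10.69 and 10.72) and Mmp9 (8.04, 6.68 and 7.78). The primary granule genes were highest in Spic-positive monocytes, with Mpo at 8.22, 9.21 and 6.35 and Elane at 5.33, 6.34 and 5.52 in the same order. Mmp8 differed by -3.38 and the receptors Csf3r and Cxcr2 by -1.89 and -1.49 in red pulp macrophages against Spic-negative monocytes, with Cxcr2 under the floor in macrophages. The part of neutrophil RNA in the S100a8 and S100a9 values was not tested.

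Of the markers of classical monocytes, 7 of 7 measured were at least 2-fold lower in red pulp macrophages against Spic-negative monocytes, beside 11.3% of all genes (median -3.45), among them Ccr2 (-5.50) and F13a1 (-5.26). Their summed level was log2 12.71 in red pulp macrophages, 14.59 in Spic-positive monocytes and 15.25 in Spic-negative monocytes. In this comparison S100a4, S100a6 and S100a10 lay within the range of these markers, -5.50 to -1.29, and S100a1, S100a8, S100a9 and S100a13 outside it. Against Spic-positive monocytes 5 of the 7 were at least 2-fold lower, beside 11.6% of all genes, and the markers ran from -5.03 to -0.44. That range holds S100a9 (-0.90) and S100a13 (-0.94) as well as S100a4, S100a6 and S100a10. S100a8 lies at its edge (-0.43) and S100a1 outside it. Between the monocyte arrays 3 of the 7 passed that line, beside 3.06% of all genes, namely Vcan (-1.56), Itgam (-1.30) and Hp (-1.41), where S100a4 and S100a6 differed by less than 2-fold. The probe sets did not all go together. The other Vcan probe sets above the floor in monocytes gave -0.38 and 0.64, while a further probe set of Ccr2 (-1.49) and of Fn1 (-1.13) passed the line.

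**Figure D5:**
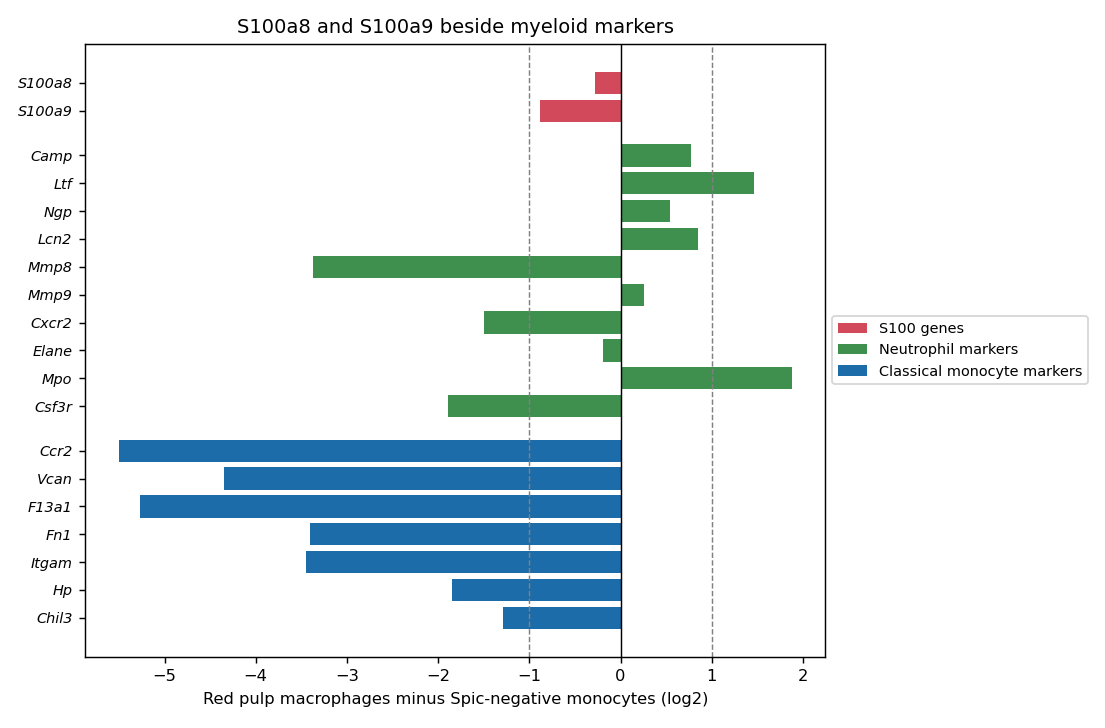
Difference of red pulp macrophages from Spic-negative monocytes (log2, 1 array each) for S100a8 and S100a9, for 10 neutrophil markers and for 7 classical monocyte markers, with 2-fold dashed. S100a8 (-0.28) and S100a9 (-0.88) lie above all classical monocyte markers, as do S100a1 and S100a13, which are not drawn. The neutrophil markers run from -3.38 to 1.88, a wide range that holds S100a1, S100a10 and S100a13 as well as S100a8 and S100a9. S100a10 lies in it only on the probe set used for the gene, and its other probe sets (-4.16 and -4.76) lie outside.

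Among the S100 genes themselves, likeness was measured as the distance between the 3 levels of 2 genes after centring each gene on its mean. S100a4 and S100a6 were 0.48 apart and S100a6 and S100a10 0.83, while S100a4 and S100a8 were 2.98 apart. All distances of S100a10 hold only for the probe set used for it. They were not measured on its other probe sets, where macrophages differed more from Spic-negative monocytes (-4.16 and -4.76). S100a9 was closest to S100a13, at 0.05, and lay 0.45 from its partner S100a8. Outside the family, the genes closest to S100a4 were Slfn1 (0.05), Rab5c (0.16) and Ifngr2 (0.21), and 2 genes lay within 0.2 of it. Those closest to S100a6 were Ceacam1 (0.09), Cers6 (0.10) and Olfm1 (0.17), with 3 genes within 0.2. For S100a10 they were Ing3 (0.04), Rnf144a (0.05) and Pstpip1 (0.08), with 20 within 0.2. The flatter genes had many like them within the same distance, namely 971 for S100a8 (led by Gng3, Fgf22 and Pomc), 850 for S100a1 (Sec23b, Stx6 and Actr8), 514 for S100a9 (Ythdc2, Tmem39a and Pdcd6ip) and 453 for S100a13 (Klk1b21, Mia3 and Smn1). Some of these genes were dim. In red pulp macrophages Slfn1 (4.51), Gng3 (4.76), Klk1b21 (4.64) and Smn1 (4.87) lay under the floor. Gng3 stayed near the floor in Spic-positive (5.19) and Spic-negative monocytes (5.05). Fgf22 was near it on all 3 arrays, at 5.24 in red pulp macrophages, 5.67 in Spic-positive monocytes and 5.53 in Spic-negative monocytes. With 3 arrays a short distance says only that the levels moved alike.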

How the data were processed

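Sorted spleen populations were measured on 3 arrays, 1 per population, with biotin-labelled cRNA made by a 2-cycle kit per the labels' protocols. The deposited values are log2 levels per probe set, made with RMA per the submitters' processing notes. The sources used here do not give its version, and the log2 scale was read from the values, which ran from 1.82 to 14.50. RMA forces a common distribution on the arrays at the level of single probes and so hides any change in total RNA per cell. The values per probe set did not share 1 distribution. Their medians were 4.96 in red pulp macrophages, 5.08 in Spic-positive monocytes and 5.01 in Spic-negative monocytes.

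Of 45101 probe sets, 64 controls were left out. Of the rest 34945 had 1 gene symbol, 932 several and 9160 none. Symbols of 34741 were updated through the gene identifier with RefSeq. Each gene took its probe set with the highest mean, and genes whose brightest array exceeded the median of all probe sets (log2 5.02) were compared. Members were counted at 2-fold, 4-fold and 8-fold beside all genes. The number of arrays limits the precision, and no test was possible. Genes named are the S100 family, the measured members of fixed partner and marker lists and the 3 nearest in pattern per gene. Xist, Eif2s3y and S100a7l2 were chosen after their values were seen. Members, lists and motifs were chosen with earlier results of these data known.

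Python 3.11.15, numpy 2.4.6, pandas 2.3.3 and matplotlib 3.10.9 were used, with limma 3.58.1 in R 4.3.3 for normalization alternatives. Gene collapsing and fold counts were tested on simulated data. Alternatives tried were a mean or median over probe sets, median-centred arrays, cyclic loess, repeated quantile normalization, leaving out probe sets that can bind several transcripts (_x_at and _s_at), no floor and a floor at the 75th percentile.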

Additional observations from a re-analysis of the deposited data

How the results depend on the processing

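Under the 8 alternatives the count of S100 genes at least 2-fold lower in red pulp macrophages stayed at 3, except that it was 4 against both monocyte populations with quantile normalization applied again and 4 against Spic-positive monocytes with cyclic loess, S100a13 being the fourth. Between the monocyte arrays it stayed at 0. Of 165 recomputed differences 162 kept their side of the 2-fold line and 3, all of S100a13, crossed it. Many of these could not move. The floor settings leave every difference as it was, and the probe set settings cannot change a gene with 1 probe set, except by removing it. The 162 are therefore not a measure of stability. S100a4 against Spic-negative monocytes ran from -4.10 to -3.92, S100a6 from -3.67 to -3.49 and S100a10 from -4.16 to -2.65. S100a1 against Spic-negative monocytes ran from -0.95 to 0.32, and S100a1, S100a9 and S100a13 between the monocyte arrays each changed sign under at least 1 alternative. Without probe sets ending in _x_at or _s_at S100a8 had no value. Centring the arrays moved the median difference of all genes between red pulp macrophages and Spic-positive monocytes to 0.23, against 0.10 as deposited, and quantile normalization again to -0.03. Between the monocyte arrays, the number of all genes past 2-fold downwards was 237 with the mean of the probe sets, against 379. No paired analysis was possible because each population had 1 array. Differences among levels under the floor depend on background.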
